A study of Mus musculus with 20 samples.

Results

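Enzymes that form hydrogen peroxide from superoxide or remove it were followed in erythroid progenitors from mouse fetal liver with and without erythropoietin (Epo), the hormone on which these cells depend. The set was a list of 9 genes: Cat, Sod1, Sod2, Gpx1, Gpx4, Prdx1, Prdx2, Prdx3 and Txn1. Each gene was read from the probe sets annotated to it alone, and the one with the highest mean over all 20 arrays was used. By that rule 8 of the 9 genes were measured, among 18193 genes in all. Prdx1 was not, because its 5 probe sets are also annotated to the predicted gene Gm21399.

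The cells were TER119-negative erythroid colony-forming units (CFU-E), taken by magnetic depletion from livers of BALB/c mouse embryos at E13.5. The series with Epo (0.5 U/ml) comprised 12 arrays at 0 to 8 h hourly and at 14, 19 and 24 h, and the series without Epo 8 arrays at 0 to 7 h hourly. For both series the state of the cells before stimulation is labelled in 2 ways, as starved after the sort and as cultured with Epo at that dose in medium with fetal calf serum and mercaptoethanol, a thiol reductant. There was 1 array for each time in a series, and the labels do not say whether the hours were separate cultures. The p-values thus rest on how much successive arrays scatter, which can be technical in part. RNA came from all cells of a culture, so fewer cells of a type and less RNA per cell cannot be told apart.

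Red cell precursors carry iron, heme and hemoglobin, which react with oxygen and generate superoxide and peroxide. Superoxide dismutases turn superoxide into hydrogen peroxide. Catalase splits the peroxide unaided, while glutathione peroxidases and peroxiredoxins reduce it with glutathione or thioredoxin, which are kept reduced with NADPH. Mice without Prdx2 have hemolytic anemia, and Gpx4 is known to protect membrane lipids of maturing red cells from peroxidation.

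The erythroid label was checked against 12 markers, of which 9 were measured. Their median level was 9.79 to 10.46 on the log2 scale on the arrays of 1 to 7 h with Epo and 10.25 to 11.44 on those without, with the transferrin receptor gene Tfrc and the erythroid transcription factor gene Klf1 the highest. Hepatocyte markers (12 of 14 measured, led by Afp and Alb) were also present, at a median of 7.39 to 9.48 with Epo and 6.36 to 8.10 without. Medians of granulocyte markers were 4.52 to 5.01 with Epo and 4.62 to 5.03 without, and those of macrophage markers 3.16 to 3.65 with Epo and 3.06 to 3.26 without. The highest granulocyte marker, Mpo, was well above its list's median, at 6.71 at 1 h and 6.16 at 7 h with Epo, against 9.30 and 6.43 without. Lymphoid markers had medians of 3.51 to 3.91 with Epo and 3.31 to 3.95 without, and megakaryocyte markers 5.07 to 5.95 with Epo and 4.75 to 5.42 without. Array medians over all probe sets lay between 3.93 and 4.15, and the highest was that of the 24 h array with Epo. That array also had the narrowest spread, with an SD over probe sets of 2.31, against 2.42 to 2.55 on the other arrays with Epo and 2.53 to 2.58 on those without.

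Most of these genes sat close to the top of the expression scale. The 99th percentile of the 18193 gene means was 12.11, and 6 of the 8 members lay at or above it. Gpx1, the abundant cytosolic glutathione peroxidase, had a mean of 13.68 over the 20 arrays (percentile 99.9). It lay on average only 0.46 below the highest gene of each array. Prdx2, the main peroxiredoxin of red cells, had a mean of 13.49 (percentile 99.8), on average 0.65 below that gene. Txn1, the cytosolic thioredoxin, was at percentile 99.5, and Gpx4, the glutathione peroxidase that reduces lipid peroxides, at 99.3. Prdx3, the mitochondrial peroxiredoxin, was at 99.1, and Sod1, the cytosolic superoxide dismutase, only just reached the 99th percentile. Sod2, its mitochondrial counterpart, was at percentile 95.0 with a mean of 10.30, and Cat, catalase, at percentile 91.5 with a mean of 9.52. Array values depend on each probe set's own brightness, so these positions describe the scale and do not order the transcripts by abundance.

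Spread over the arrays was narrow for most members near the top. The SD over 20 arrays was 0.12 for Prdx2 and 0.14 for Gpx1, at percentiles 1.2 and 3.6 of all genes. It was 0.17 for Prdx3, 0.19 for Txn1 and 0.20 for Sod1. Across the 182 genes near the top the median SD was 0.22, against 0.27 for all genes and 0.40 for genes brighter than the median gene. Gpx4 was near the top and still varied widely, with an SD of 0.50 (percentile 80.8). Sod2 and Cat, lower on the scale, had SDs of 0.39 and 0.29. In the plot of level against spread the median SD of all genes is 0.34 around a level of 12, 0.21 around 13 and 0.10 around 14.

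**Figure D1:**
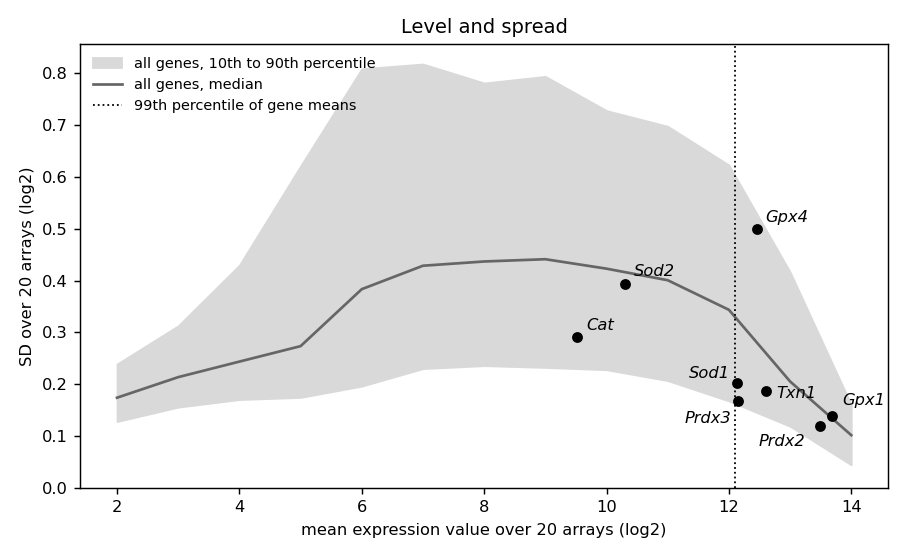
Standard deviation over the 20 arrays (log2) plotted against the mean expression value (log2) for the 8 measured genes, with the median and the 10th to 90th percentile of all genes at each level as line and band. A dotted line marks the 99th percentile of gene means at 12.11. Gpx1 and Prdx2 sit far right with SDs of 0.14 and 0.12, while Gpx4 reaches 0.50.

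The series differed before the first matched hour. At 0 h, the log2 difference was 1 or more in either direction for 551 of 18193 genes (3.03%), with 436 higher in the series with Epo. Gpx4 had 12.64 at 0 h with Epo against 12.10 without, a difference of 0.55 (percentile 85.3 of absolute 0 h differences, whose median was 0.22). Sod2 had 10.31 with Epo against 10.80 without, and Cat 9.27 with Epo against 9.66 without. The 0 h differences of the other 5 members were between -0.16 for Sod1 and 0.21 for Prdx2. Hepatocyte markers were higher as well, with a median level of 10.35 at 0 h with Epo against 8.80 without. Megakaryocyte markers had 5.56 with Epo against 4.04 without. The medians of granulocyte markers (4.93 with Epo against 6.22 without) and erythroid markers (10.01 against 10.23) went the other way.

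With Epo, Gpx4 was higher and Sod1 slightly lower than without Epo over 1 to 7 h, and Txn1 was modestly higher. Gpx1, Prdx2, Prdx3, Cat and Sod2 did not pass the threshold. The difference (Epo minus no Epo) was fitted on 14 arrays with limma, with time as a block, and calls required an adjusted p under 0.05 (Benjamini-Hochberg, across the whole set of genes). Of the 8 members 2 were called higher and 1 lower, against a background of 38.4% of all genes called (18.2% higher and 20.2% lower). The median log2 difference was 0.05 over the members and 0.03 over all genes. Of the 182 genes near the top 67.6% were called, with a median absolute log2 difference of 0.24, against 0.19 over all genes. The part of the position near the top in the members' values was not tested. After each array was centred on its median the split of all called genes shifted, with 34.8% of them higher, against 47.4% without centring.

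Gpx4 was the only member whose values did not overlap between the series at 1 to 7 h, a pattern found in 13.9% of all genes. Its values were 12.61 to 12.90 (median 12.77) with Epo and 11.55 to 12.09 (median 11.95) without. The means were 12.78 ± 0.095 with Epo and 11.87 ± 0.22 without (SD, n = 7 each). The log2 difference was 0.91 ± 0.07 (SE, adjusted p = 2.7e-06), or 1.87-fold, and Gpx4 was higher in 7 of 7 pairs. Relative to the difference that the series already had at 0 h, the gain was 0.36 ± 0.19 (adjusted p = 0.64), and 0.36 ± 0.12 (adjusted p = 0.13) where a linear drift of the differences was also fitted. Few genes were called in that comparison, 12 of 18193, or 678 with the drift. Hepatocyte markers were higher with Epo too (10 of 12 called higher, 0 lower, median log2 difference 0.97). Erythroid markers were lower (6 of 9 called lower, 0 higher, median log2 difference -0.40). Granulocyte markers were called lower in 2 of 10 genes, Mpo (-1.48) and Prtn3 (-0.77), and higher in 1 of 10, S100a8 (0.58). The part of these markers in the Gpx4 result was not tested.

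The other glutathione peroxidase, Gpx1, barely moved. It had 13.63 to 13.70 (median 13.66) with Epo and 13.54 to 13.67 (median 13.60) without, and the series overlapped. The difference was 0.06 ± 0.03 (adjusted p = 0.17), higher in 6 of 7 pairs. Cat, which breaks peroxide down without a reducing partner, had 8.79 to 9.77 (median 9.45) with Epo and 9.48 to 9.81 (median 9.53) without. The lowest Cat value of all was that of the 2 h array with Epo. Over 1 to 7 h the log2 difference was -0.23 ± 0.14 (adjusted p = 0.22), with 3 pairs higher and 4 lower.

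Thioredoxin was the only other member called higher. Txn1 had 12.47 to 12.77 (median 12.69) with Epo and 12.17 to 12.60 (median 12.46) without, with overlap. Epo minus no Epo was 0.22 ± 0.07 on the log2 scale (adjusted p = 0.023), higher in 7 of 7 pairs, although the pair at 1 h differed by 0.004 only. Relative to 0 h the difference was 0.24 (adjusted p = 0.75, and 0.23 with the drift). The call was lost after each array was centred on its median (0.15, adjusted p = 0.11) and without the 5 h, 6 h or 7 h arrays (adjusted p 0.060, 0.070 and 0.052). The peroxiredoxins among the members did not pass with the probe sets used. Prdx2 had 13.43 to 13.53 (median 13.49) with Epo and 13.33 to 13.51 (median 13.47) without, a log2 difference of 0.03 ± 0.04 (adjusted p = 0.55), whereas its dimmer probe set, described further on, differed by 0.96. Prdx3 had 12.04 to 12.38 (median 12.17) with Epo and 11.94 to 12.17 (median 12.06) without. That difference was 0.12 ± 0.05 (adjusted p = 0.093), with the same sign in 7 of 7 pairs.

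Of the enzymes that produce peroxide from superoxide, Sod1 had 11.96 to 12.20 (median 12.11) with Epo and 11.92 to 12.43 (median 12.36) without. The groups overlapped through the 7 h array without Epo. The log2 difference was -0.20 ± 0.05 (adjusted p = 0.013), lower in 6 of 7 pairs, but the pair at 0 h already differed by -0.16, and relative to it the difference was -0.03 (adjusted p = 0.97). Sod2 had 10.09 to 10.40 (median 10.26) with Epo and 9.96 to 10.95 (median 10.78) without. Its difference of -0.27 ± 0.12 did not pass (adjusted p = 0.11). It passed without the 7 h arrays (-0.37, adjusted p = 0.027) and, narrowly, after centring on array medians (-0.34, adjusted p = 0.049).

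**Figure D2:**
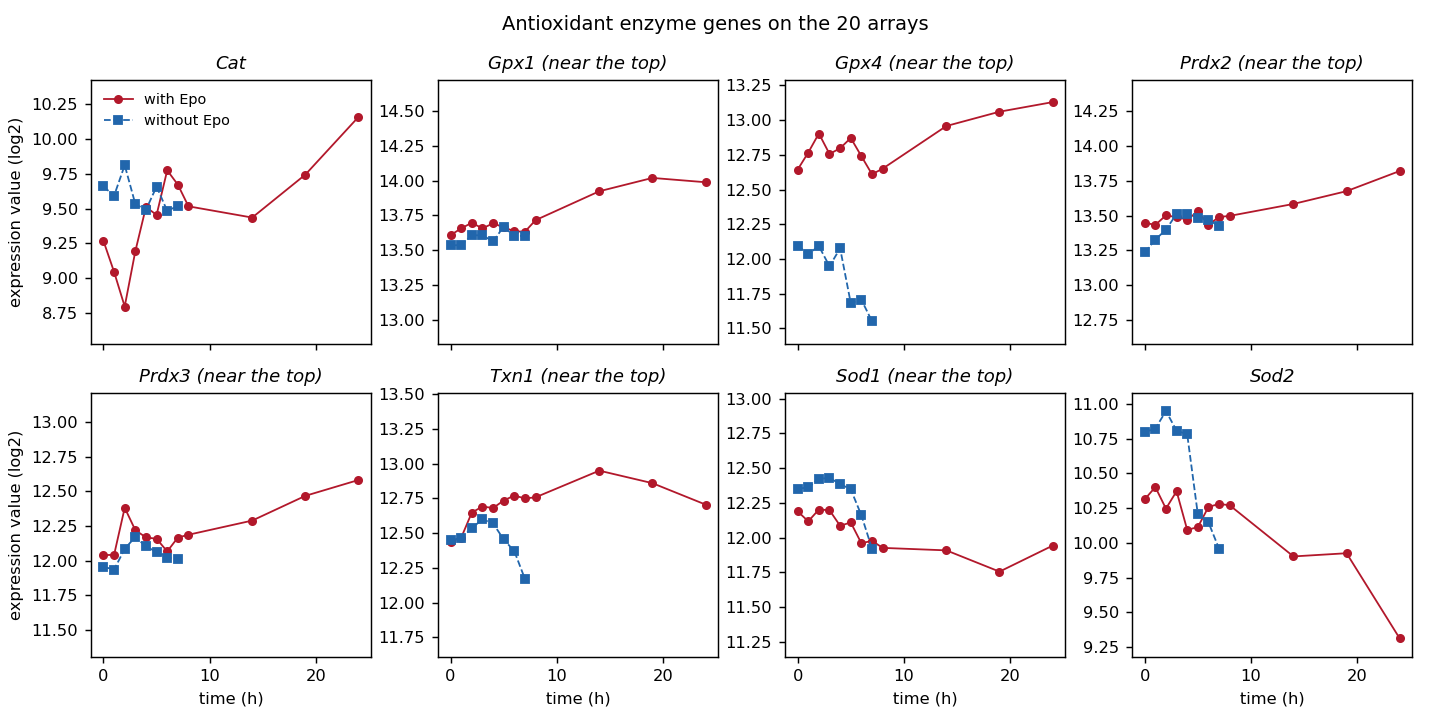
Expression value (log2) of the 8 measured genes against time (h), with Epo in red circles and without Epo in blue squares, each point 1 array, on axes of equal height. Gpx4 lies higher with Epo at every shared time, Cat dips to 8.79 at 2 h with Epo, and Sod2 without Epo drops between 4 and 5 h.

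The difference between the series (Epo minus no Epo) changed over the hours for 3 members, rising in its signed value for Cat, Sod2 and Txn1. For Cat and Sod2 it began below 0 and ended above it. For 15.2% of all genes such a change was called, 7.25% rising and 7.97% falling, and for 33% of the 182 genes near the top. Cat differed by -1.02 at 2 h and by 0.29 at 6 h, a slope of 0.17 ± 0.04 log2 per hour (adjusted p = 0.010). Sod2 differed by -0.70 at 2 h and 0.32 at 7 h, a slope of 0.15 ± 0.04 (adjusted p = 0.012). Txn1 had a difference of 0.11 at 2 h and 0.58 at 7 h, with a slope of 0.089 ± 0.018 (adjusted p = 0.0035). The slope for Gpx4 was 0.065 ± 0.022 (adjusted p = 0.064). Those of Sod1, Gpx1, Prdx2 and Prdx3 were between -0.015 and 0.034 and did not pass. Without the 6 h arrays only Txn1 was called, and without the 7 h arrays only Cat. The Sod2 call was also not made without the 2 h arrays (adjusted p = 0.051). Granulocyte markers were called rising in 3 of 10 genes and falling in 0, and erythroid markers falling in 2 of 9 and rising in 0. Their part in the members' changes was not tested.

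**Figure D3:**
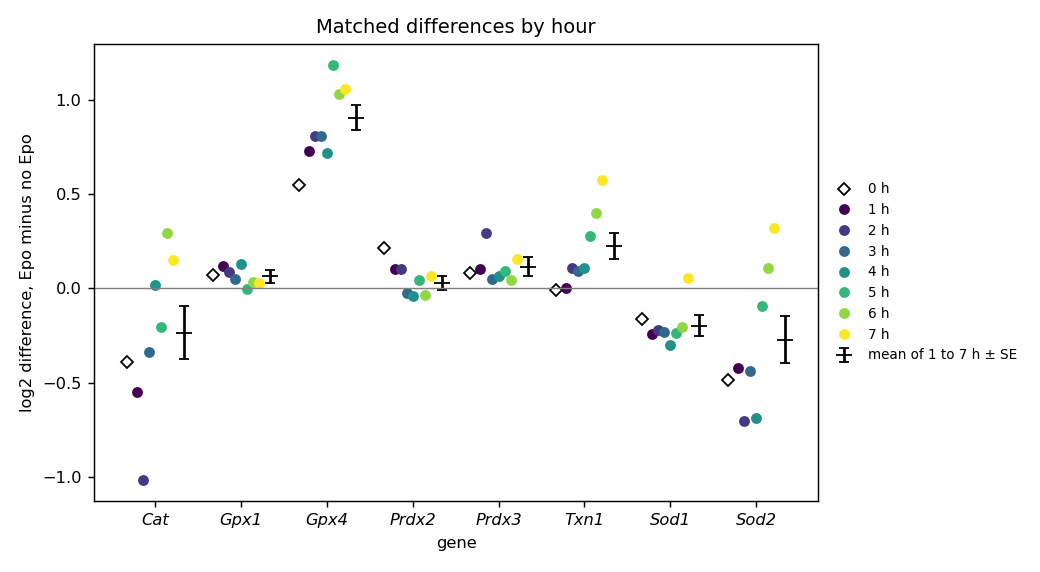
Log2 difference, Epo minus no Epo, of each of the 8 genes at each hour (points coloured by hour, open diamonds at 0 h) with the mean of 1 to 7 h ± SE from the fit. Gpx4 lies between 0.72 and 1.19 at 1 to 7 h and already at 0.55 at 0 h, while Cat, Sod2 and Txn1 climb with the hours.

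The course within each series shows which side moved. Without Epo, 3 members fell over 0 to 7 h and none rose, where 28.7% of all genes were called (13.3% rising and 15.4% falling). Among the 182 genes near the top 55.5% were called. Sod2 was at 10.80, 10.82, 10.95, 10.81, 10.78, 10.21, 10.15 and 9.96 from 0 to 7 h, and it fell by 0.14 ± 0.03 per hour on the log2 scale (adjusted p = 0.0020). The first 5 arrays lay close together and the last 3 lay lower. Gpx4 was at 12.10, 12.04, 12.09, 11.95, 12.08, 11.68, 11.71 and 11.55, and fell by 0.078 ± 0.016 per hour (adjusted p = 0.0029), again with the 3 last arrays lowest. Sod1 fell by 0.051 ± 0.017 per hour (adjusted p = 0.042), a call not made without the 1 h, 2 h, 6 h or 7 h array, the last of which gave a slope of -0.023 (adjusted p = 0.36). Txn1 had a slope of -0.032 (adjusted p = 0.17) and its lowest value, 12.17, at 7 h. Slopes of Cat, Gpx1, Prdx2 and Prdx3 were between -0.024 and 0.027. Hepatocyte markers fell in 11 of 12 genes without Epo, and in 11 of 12 with Epo. Erythroid markers rose in 6 of 9 genes without Epo and fell in 0, and with Epo rose in 3 and fell in 1. Granulocyte markers fell in 5 of 10 genes without Epo and in 2 of 10 with Epo, and rose in 0 in either series. The part of these markers in the slopes was not tested.

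With Epo, 8.09% of all genes were called over the same hours (2.21% rising and 5.88% falling), against 11.5% of those near the top. Here 2 members rose. Cat was at 9.27, 9.04, 8.79, 9.19, 9.51, 9.45, 9.77 and 9.67 from 0 to 7 h, a slope of 0.10 ± 0.03 per hour (adjusted p = 0.034). It went down to the 2 h array and was above its 0 h value from 4 h on. Txn1 was at 12.44, 12.47, 12.65, 12.69, 12.68, 12.74, 12.77 and 12.75, with a slope of 0.047 ± 0.011 per hour (adjusted p = 0.015). Neither call was made without the 1 h array or without the 6 h array. That of Cat was also not made without the 4 h, 5 h or 7 h array, and that of Txn1 without the 0 h array (adjusted p = 0.12). Gpx4 had a slope of -0.005 (adjusted p = 0.91) and Sod2 of -0.019 (adjusted p = 0.66), where both had fallen without Epo. The change of the Epo effect above tests such a difference between the series, but over 1 to 7 h and not 0 to 7 h. Over those hours Sod2 passed it and Gpx4 did not (adjusted p = 0.064). For Gpx4 it therefore does not decide on the slopes over 0 to 7 h.

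**Figure D4:**
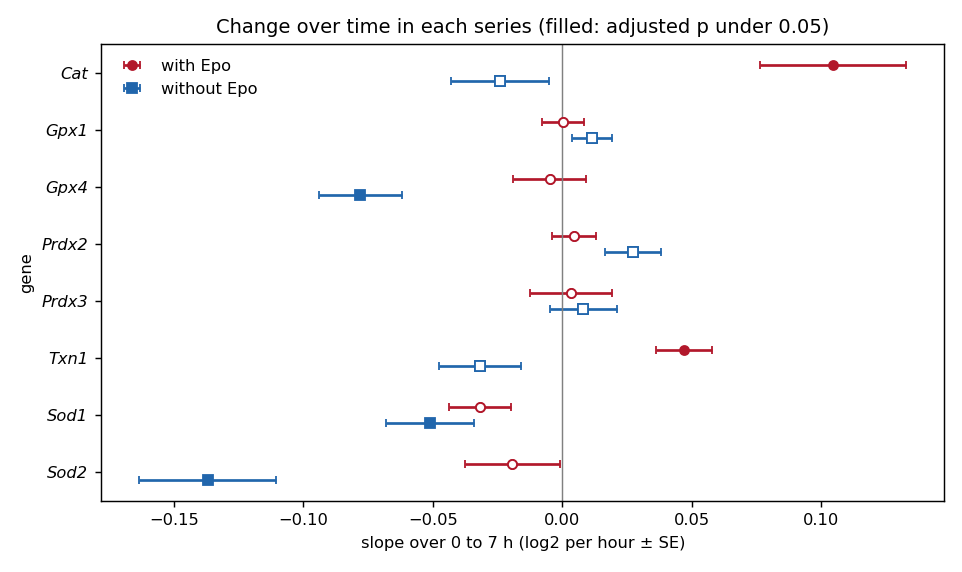
Slope over 0 to 7 h (log2 per hour ± SE) of the 8 genes, with Epo in red circles above and without Epo in blue squares below, filled where the adjusted p was under 0.05. Cat and Txn1 are filled with Epo at 0.10 and 0.047, and Sod2, Gpx4 and Sod1 without Epo at -0.14, -0.078 and -0.051.

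Later, the peroxidase genes Gpx1, Gpx4, Prdx2 and Prdx3 were higher and Sod2 was lower. The arrays of 14, 19 and 24 h with Epo were compared with those of 1 to 8 h with Epo, since the series without Epo ends at 7 h, so that late time has no untreated counterpart here. Of the 8 members 4 were called higher and 1 lower, where 36.2% of all genes were called (17.6% higher and 18.5% lower). Among the 182 genes near the top 46.2% were called. The median log2 difference was 0.24 over the members and 0.08 over all genes. After centring on array medians 37.1% of all called genes were higher, against 48.7% without it. Late and early values did not overlap for Gpx1, Gpx4, Prdx2 and Sod2, as for 26.2% of all genes. Set against the arrays of 6 to 8 h alone, Gpx1 and Gpx4 were still called and Sod2 (-0.56, adjusted p = 0.067), Prdx2 and Prdx3 were not.

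Both glutathione peroxidases were among the 4. Gpx1 had 13.92, 14.02 and 13.99 at 14, 19 and 24 h, against 13.63 to 13.72 (median 13.66) at 1 to 8 h. The log2 difference was 0.31 ± 0.05 (adjusted p = 0.00020), or 1.24-fold. Gpx4 had 12.96, 13.06 and 13.13 late, against 12.61 to 12.90 (median 12.76) early. Its difference was 0.29 ± 0.07 (adjusted p = 0.0065). Cat had 9.43, 9.74 and 10.16 late, against 8.79 to 9.77 (median 9.48) early, and its difference of 0.41 ± 0.20 did not pass (adjusted p = 0.12). Its 24 h value was the highest of all 20 arrays. The Cat call was made without the 14 h array (0.58, adjusted p = 0.046) and after quantile normalization (0.55, adjusted p = 0.049).

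The peroxiredoxins were higher late as well. Prdx2 had 13.58, 13.68 and 13.82 late, against 13.43 to 13.53 (median 13.49) early, a log2 difference of 0.21 ± 0.06 (adjusted p = 0.0084). Prdx3 had 12.29, 12.47 and 12.58 late, against 12.04 to 12.38 (median 12.17) early, a difference of 0.27 ± 0.08 (adjusted p = 0.020). In both genes the values climbed with time over the 3 late arrays. Neither call was made without the 24 h array (0.15, adjusted p = 0.050 for Prdx2, and 0.20, adjusted p = 0.11 for Prdx3) or after centring on array medians (adjusted p = 0.059 and 0.081), and that of Prdx3 was also not made without the 19 h array (adjusted p = 0.062). Txn1 had 12.95, 12.86 and 12.71 late, against 12.47 to 12.77 (median 12.71) early, a difference of 0.15 ± 0.08 (adjusted p = 0.14).

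Among the dismutases Sod2 was lower late. It had 9.90, 9.93 and 9.31 at 14, 19 and 24 h, against 10.09 to 10.40 (median 10.27) at 1 to 8 h. Late minus early was -0.54 ± 0.13 (adjusted p = 0.0046), and the 24 h array was the lowest of all 20. Sod1 had 11.91, 11.75 and 11.94 late, against 11.93 to 12.20 (median 12.10) early, a difference of -0.20 ± 0.08 (adjusted p = 0.065). It passed without the 8 h array (-0.22, adjusted p = 0.049) and after centring on array medians (-0.28, adjusted p = 0.017). Hepatocyte markers were lower late in 10 of 12 genes (median log2 difference -3.20), at a median level of 4.51 to 5.69 late and 7.23 to 9.48 at 1 to 8 h. Erythroid markers were higher in 5 of 9 and lower in 1 of 9, at a median level of 10.61 to 10.92 late and 9.79 to 10.46 at 1 to 8 h. Granulocyte markers were higher late in 5 of 10 and lower in 3, lymphoid markers higher in 4 of 7, megakaryocyte markers in 3 of 5 and macrophage markers in 3 of 10, with none of these 3 lists holding a lower call. The median log2 differences of these lists were 0.29, 0.39, 0.58 and 0.21. The part of these cell types in the late results was not tested.

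Other probe sets of the same genes were then compared, a step added after the data were seen, with fits over all 34945 probe sets annotated to 1 gene. For Prdx2 a dimmer probe set (mean 8.07) gave a different picture from the one near the top. It had 8.05 to 8.59 at 1 to 7 h with Epo and 7.21 to 7.61 without, with no overlap. It differed by 0.96 ± 0.11 (adjusted p = 3.2e-05), against 0.03 for the bright probe set, and the 0 h pair differed by 0.80. Late values were 9.11, 9.27 and 9.75, against 8.05 to 8.59 at 1 to 8 h, a difference of 1.04 ± 0.16 (adjusted p = 0.00018). Over the 20 arrays, which share treatment and time, its values correlated with those of the bright probe set at r = 0.78.

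For Gpx4, Cat and Sod2 the bright alternatives moved as the probe sets used. The other Gpx4 probe set (mean 12.12) had an Epo effect of 0.73 ± 0.06 (adjusted p = 5.5e-06) and a late difference of 0.44 ± 0.08 (adjusted p = 0.0010). The other Cat probe set (mean 9.19) had a slope of 0.15 ± 0.02 per hour with Epo (adjusted p = 0.0012) and was called higher late (0.61 ± 0.21, adjusted p = 0.041). The second Sod2 probe set (mean 10.19) differed by -0.67 ± 0.15 late (adjusted p = 0.0039). A dimmer Sod2 probe set (mean 7.45) had 6.74, 5.95 and 4.73 at 14, 19 and 24 h, against 7.22 to 7.82 at 1 to 8 h, a difference of -1.74 ± 0.29 (adjusted p = 0.00036). The dimmest Sod2 probe set (mean 4.88) had a late difference of -0.19 ± 0.18 (adjusted p = 0.43).

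For Sod1 and Txn1 the probe sets disagreed. The other Txn1 probe set (mean 5.87) had an Epo effect of 0.05 ± 0.10 (adjusted p = 0.76) and a slope of the Epo effect of -0.061 ± 0.046 per hour (adjusted p = 0.49), neither of them called, and r with the probe set used was 0.32. The next brightest Sod1 probe set (mean 11.64) had an Epo effect of -0.11 ± 0.06 (adjusted p = 0.17), with the same sign but no call. A dim Sod1 probe set (mean 5.55) had an effect in the other direction, 0.74 ± 0.17 (adjusted p = 0.0053). The other dim Sod1 probe sets, with means of 5.58 and 1.93, had -0.35 ± 0.14 and 0.08 ± 0.06 (adjusted p = 0.063 and 0.30). The mean of all Sod1 probe sets gave 0.03 (adjusted p = 0.78).

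**Figure D5:**
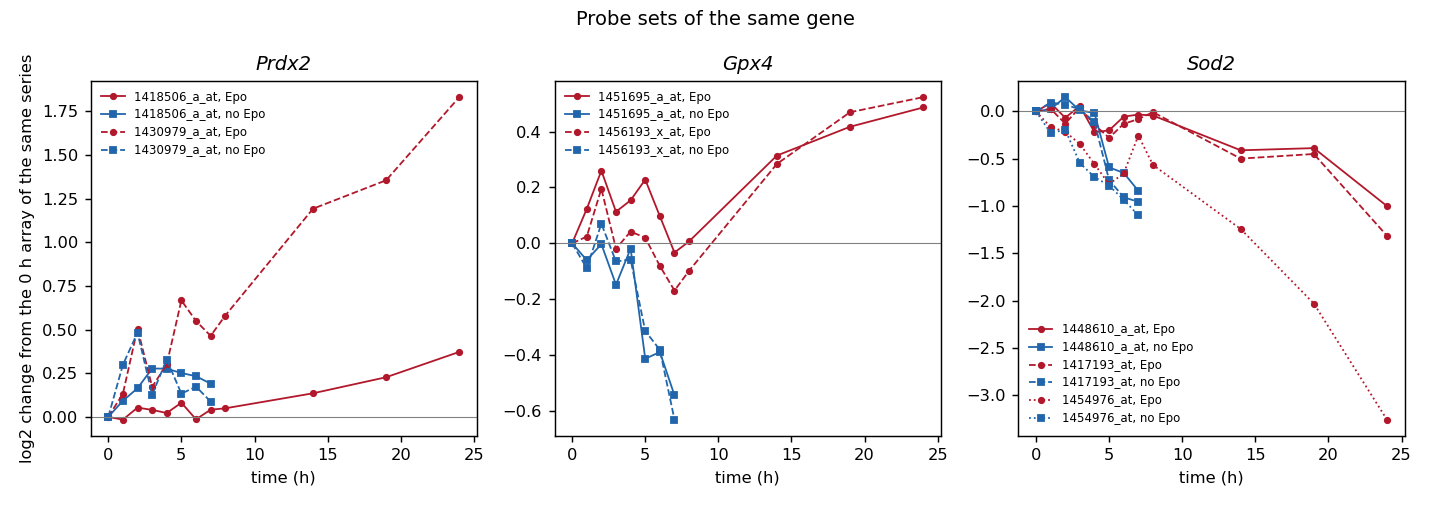
Log2 change from the 0 h array of the same series for the probe sets of Prdx2, Gpx4 and Sod2, against time (h), with Epo in red circles and without Epo in blue squares, line styles marking the probe sets that the legends identify. The dimmer Prdx2 probe set climbs far above the bright one at 14 to 24 h with Epo, the Gpx4 probe sets run together, and the dimmer Sod2 probe set drops furthest of the 3 drawn.

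Among the genes that serve these enzymes, Srxn1 was higher and Txnip lower with Epo, each from nearly equal levels at 0 h. The counts of the companion lists stand beside 18.2% of all genes called higher and 20.2% called lower, and nothing particular to a list is read from them. Of 9 measured other peroxiredoxins, glutathione peroxidases and dismutases (11 listed), 3 were called higher with Epo and 0 lower, with a median log2 difference of 0.14. Prdx4, the peroxiredoxin of the endoplasmic reticulum, differed by 1.08 ± 0.08 (adjusted p = 3.0e-06), but by 0.20 (adjusted p = 0.82) relative to its 0 h difference. Gpx3 differed by 0.39 ± 0.08 and Gpx8 by 0.24 ± 0.08 (adjusted p = 0.0031 and 0.043), and relative to 0 h by 0.26 and -0.30, neither called. Both were dim, Gpx3 at 4.26 to 5.11 and Gpx8 at 2.04 to 3.37 over the 20 arrays. Array medians over all probe sets were 3.93 to 4.15. Late, Prdx4 was lower, with a difference of -0.98 ± 0.18 (adjusted p = 0.00087), while Prdx2 and Prdx3 were higher.

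Genes of thioredoxin and glutaredoxin reduction divided, with 5 of 18 called higher, 4 lower and a median of 0.01. Srxn1 encodes sulfiredoxin, which restores over-oxidised peroxiredoxins. It stood at 5.92 at 0 h in both series, was at 9.24 at 4 h with Epo against 5.54 without, and differed by 3.09 ± 0.27 over 1 to 7 h (adjusted p = 7.6e-06). Relative to 0 h the difference was the same, 3.09 (adjusted p = 0.34, and 0.0053 with the drift fitted). Txnip encodes a protein that binds and inhibits thioredoxin. It was at 7.58 at 0 h and 6.40 at 4 h with Epo, against 7.495 at 0 h and 10.90 at 4 h without. The log2 difference was -4.36 ± 0.16 (adjusted p = 2.4e-07), and -4.45 relative to 0 h (adjusted p = 0.0052). On the same scale Txn1 differed by 0.22, Prdx3 by 0.12 and Prdx2 by 0.03 with the bright and 0.96 with the dimmer probe set. Txnrd1, the cytosolic thioredoxin reductase, differed by 0.49 ± 0.19 (adjusted p = 0.059). Txnrd1 had begun lower with Epo, at 9.59 against 10.41 at 0 h, and relative to that its difference was 1.32 (adjusted p = 0.62, and 0.016 with the drift fitted). Txnrd2, the mitochondrial reductase, differed by -0.98 ± 0.12 and the sestrin gene Sesn2 by -0.98 ± 0.24 (adjusted p = 6.9e-05 and 0.0073), and relative to 0 h by -0.80 and -0.91, neither called. Late, Txnip differed by 1.66 ± 0.29 and Txnrd1 by -1.58 ± 0.29 (adjusted p = 0.00053 and 0.00073), while Srxn1 did not pass (-0.32 ± 0.40, adjusted p = 0.56).

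In glutathione synthesis and NADPH supply, 4 of 12 genes were higher and 2 lower with Epo (median 0.26). Gsr, glutathione reductase, differed by 0.67 ± 0.22 (adjusted p = 0.030) and by 1.22 relative to 0 h (adjusted p = 0.64, and 0.022 with the drift fitted). Me1, an NADPH-producing malic enzyme, differed by 1.76 ± 0.28 and Idh1, the cytosolic NADPH-producing isocitrate dehydrogenase, by 0.79 ± 0.14 (adjusted p = 0.00041 and 0.00083). Gclc, the catalytic subunit of the first enzyme of glutathione synthesis, differed by -0.92 ± 0.16 and Idh2, the mitochondrial isoform, by -0.91 ± 0.10 (adjusted p = 0.00095 and 2.5e-05). Relative to 0 h the differences were 1.61 for Me1, -0.25 for Idh1, -0.38 for Gclc and -0.55 for Idh2, none of them called, and that of Idh1 had the opposite sign.

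Gpx1 and Gpx4 are selenoproteins, so genes of selenocysteine insertion were read too. The list also held the genes of the selenoproteins Selenop, Selenow and Selenok, which are not part of the insertion machinery. Of 10 genes 6 were higher with Epo and 2 lower (median 0.41). Selenop, Selenow (0.19) and Selenok (0.59) were all among the 6. The 2 lower were Sepsecs (-0.70 ± 0.10, adjusted p = 0.00019) and Sephs1 (-0.31 ± 0.10, adjusted p = 0.026). Relative to 0 h these 2 differed by -0.52 and -0.36, neither called. Selenop, a selenium carrier secreted mainly by the liver, differed by 1.41 ± 0.11 (adjusted p = 3.4e-06), but by -0.36 (adjusted p = 0.75) relative to 0 h, and the hepatocyte markers given above were higher with Epo too. Pstk, the kinase that acts on the selenocysteine transfer RNA, differed by 1.28 ± 0.11, Trnau1ap, a protein bound to that transfer RNA, by 1.11 ± 0.14, and Secisbp2, which reads the selenocysteine signal in messenger RNAs, by 0.79 ± 0.20 (adjusted p = 6.2e-06, 7.0e-05 and 0.010). Relative to 0 h these differences were 0.29, 0.54 and 0.86, none of them called. Late, 2 of the 10 genes were higher, Selenow and Selenok, and 5 lower (median -0.45). Among the lower were Selenop (-1.23) and Pstk (-1.03 ± 0.22, adjusted p = 0.0022), in the interval in which Gpx1 and Gpx4 were higher.

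Of 9 redox regulators and heme oxygenase or quinone reductase genes, 2 were higher and 3 lower with Epo (median -0.26). Foxo3, a transcription factor gene known to act on antioxidant genes in red cell precursors, differed by -1.56 ± 0.16 (adjusted p = 2.2e-05), and late by 1.57 ± 0.25 (adjusted p = 0.00027). Nfe2l2, which encodes the factor NRF2 that binds antioxidant response elements, differed by -0.60 ± 0.13 (adjusted p = 0.0040). Nqo1, a quinone reductase known as an NRF2 target, differed by 0.94 ± 0.13, and Hmox2, the constitutive heme oxygenase, by 0.53 ± 0.10 (adjusted p = 0.00017 and 0.0019). None of the 4 was called relative to its 0 h difference, with or without the drift.

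Promoters of the 8 members, from 250 bases before to 50 after the annotated gene start, were taken from RefSeq (GRCm38.p6) and searched on both strands for letters of 4 motifs. The antioxidant response element core TGACNNNGC occurred in 1 of 8 (12.4% of all 32851 promoters), the GATA-type AGATAA in 0 of 8 (11.2%), the forkhead-type TGTTTAC in 0 of 8 (3.65%) and the CACCC box CCACACCC in 1 of 8 (3.56%). Printed here are the 2 promoters with a match, with the matched letters in capitals, and that of Gpx4, the member with the largest Epo effect among the probe sets used, which held no match in the 1 of its 4 listed promoters that lies at the annotated gene start. In Sod1 the match lies on the strand opposite to the printed one, with its first printed base at -56 from the gene start. In Prdx3 it lies on the printed strand at -92. A match is a description of letters and not a bound site.
Sod1 (chr16:90220512-90220811, plus strand): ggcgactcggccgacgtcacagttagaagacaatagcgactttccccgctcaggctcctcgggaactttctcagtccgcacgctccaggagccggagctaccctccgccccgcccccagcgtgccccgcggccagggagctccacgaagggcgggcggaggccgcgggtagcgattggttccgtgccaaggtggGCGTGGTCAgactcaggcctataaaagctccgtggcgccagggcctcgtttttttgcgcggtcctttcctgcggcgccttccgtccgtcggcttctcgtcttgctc
Prdx3 (chr19:60874489-60874788, minus strand): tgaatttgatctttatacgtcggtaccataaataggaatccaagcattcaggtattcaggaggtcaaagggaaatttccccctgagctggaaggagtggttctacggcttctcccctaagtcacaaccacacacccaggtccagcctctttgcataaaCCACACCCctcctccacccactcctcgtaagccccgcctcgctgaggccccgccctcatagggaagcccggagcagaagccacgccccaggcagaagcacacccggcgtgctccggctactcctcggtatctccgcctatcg
Gpx4 (chr10:80046916-80047215, plus strand): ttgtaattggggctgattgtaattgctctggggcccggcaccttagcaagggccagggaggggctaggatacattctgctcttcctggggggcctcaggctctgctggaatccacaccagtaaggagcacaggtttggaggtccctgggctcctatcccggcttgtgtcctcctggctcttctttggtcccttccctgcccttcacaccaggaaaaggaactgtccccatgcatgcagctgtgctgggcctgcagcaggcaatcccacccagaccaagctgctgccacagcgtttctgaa

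Among themselves the members fell into loose sets over the 20 arrays. These correlations are descriptions, since the arrays share treatment, time and scaling. Prdx2 and Prdx3 correlated at r = 0.89, and Gpx1 with Prdx3 at 0.87 and with Prdx2 at 0.85. Sod1 and Sod2 correlated at 0.79 and Gpx4 and Txn1 at 0.78, while Sod2 ran against Gpx1 (r = -0.76) and Prdx2 (r = -0.75). Cat stood apart from all of them, with r between -0.20 and 0.28. Of 12757 genes with an SD of at least 0.2, those closest to each member by r were Ndufs4 and Use1 for Gpx4 (0.98 each), Pdha1 and Cct8 for Sod2 (0.98 and 0.97), and Cdkn3 and Etv4 for Gpx1 (0.97 and 0.96). For Prdx2 they were Plaat3 and Zfand2b (0.95 and 0.93), for Prdx3 Cep112 and Zfand2b (0.94 and 0.93), and for Txn1 Cops5 and Idi1 (0.91 and 0.87). Sod1 was closest to Adamts3 and Arap3 (0.89 and 0.88) and Cat to Tspan14 and Pheta2 (0.79 each).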

How the data were processed

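RNA was measured on Affymetrix mouse expression arrays, 1 array per treatment and time. The deposited values run from 1.37 to 14.6 and are log2 expression values. The steps by which the authors summarised and scaled probe intensities are not given in the sources used here. Per the labels' protocols, total RNA was extracted with a column kit and biotinylated. Arrays have no sequencing depth; their number sets the precision.

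Of 45101 probe sets 34945 named 1 gene in the platform annotation, 932 several and 9224 none (64 of them controls, left out). A RefSeq table (GRCm38.p6) held the gene of 34741, and 0 symbols changed. Each gene was represented by its probe set with the highest mean. No filter on dim genes was used.

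Linear models with trended empirical Bayes variances were fitted with limma 3.58.1 (R 4.3.3), with Benjamini-Hochberg adjustment over 18193 genes: the Epo effect on 14 arrays with time as a block, its change as the slope of the 7 matched differences, linear time within each series over 8 arrays, and late (3 arrays) against early (8 arrays) with Epo. In the comparisons relative to 0 h, the 0 h pair was subtracted, without or with a linear drift. Python 3.11.15 with numpy 2.4.6, pandas 2.3.3 and matplotlib 3.10.9 made the tables and plots.

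The members, gene lists, tests and alternatives were chosen with earlier results of these data known. Named were all members, of each companion list up to 4 called genes with the largest Epo effect, Srxn1, Txnip, Txnrd1 and Gsr always, and for each member the 2 genes most correlated with it. Single other probe sets as alternatives, for those with a mean of at least 7, and the dim probe sets named were added after seeing the data. So were the values of Mpo, Prtn3, S100a8, Hba-a1, Kit, Sepsecs and Sephs1.

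On simulated data of 18193 genes, changes of 0.5, 1 and 2 on the log2 scale were given to 67, 67 and 66 genes drawn from all levels. They were recovered in 44.8%, 95.5% and 98.5% of cases for the Epo effect and in 25.4%, 89.6% and 100% for the late comparison. Over the span of the slopes, the shares were 0%, 11.9% and 81.8% for the change of the Epo effect, 14.9%, 77.6% and 98.5% for time without Epo and 9%, 58.2% and 97% for time with Epo. Most differences of the members were smaller than 0.5. The simulation changed far fewer genes than were called in the data (6981 for the Epo effect), which makes its adjusted threshold stricter. Its shares therefore do not give the recovery for these members, most of which lie near the top.

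Alternatives were quantile normalization, centring on array medians, averaging every probe set of a gene, testing only the 9097 brighter genes, leaving out probe sets with the suffixes s, x or a, other variance models, no block, other uses of 0 h and of the early times, and each time left out.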

Additional observations from a re-analysis of the deposited data

Results flagged for a closer look

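Among the matched differences of Sod1 at 1 to 7 h, the pair at 7 h stood apart at 0.057, while the other 6 pairs were between -0.20 and -0.30. Of 16 sets of values examined for a sample far from the others this was the 1 found, and chance alone marks about 1 in 20.

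The slope with Epo minus the slope without Epo over 1 to 7 h differed from 0 in the limma fit for 3 genes. It was 0.1733 log2 per hour for Cat (adjusted p = 0.010), 0.1499 for Sod2 (adjusted p = 0.012) and 0.0888 for Txn1 (adjusted p = 0.0035).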

How the results depend on the processing

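Over 40 values (8 genes in 5 comparisons, 16 called) and 694 alternative values, 585 kept direction and side of the threshold, 54 lost a call, 19 gained one and 36 changed sign. No value that changed sign was called under the alternative. Of the 16 calls 7 were made with each time left out in turn, and 4 under every alternative run: Sod2 and Gpx4 over time without Epo, and Gpx1 and Gpx4 late. No call was made relative to 0 h, so 0 members had an Epo effect there against 3, and over all genes 12 were called, or 678 with the drift, against 6981 (1446 and 3200 at an unadjusted p under 0.05). With each time left out, the members called numbered 1 to 4 for the change of the Epo effect, 0 to 2 for time with Epo and 3 to 6 late. Time with Epo had 1 member called after median centring, with the mean of all probe sets and over 1 to 7 h only, and 0 without a variance trend, against 2. Late, 3 were called without the trend and 2 against 6 to 8 h, against 5. Over all genes the late calls were 4232 without 24 h and 2896 against 6 to 8 h, against 6579. They were 1736 without 6 h against 2769 for the change of the Epo effect, and 915 without 6 h against 1472 for time with Epo. The cause of these shifts was not tested.

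Both called values that changed sign were those of Sod1 with the mean of all probe sets, 0.0323 for the Epo effect and 0.0128 for time without Epo. Relative to 0 h the Epo effect was 0.1574 for Cat, 0.2124 for Sod2, -0.0097 for Gpx1 and -0.1826 for Prdx2. After median centring it was -0.0084 for Gpx1 and -0.0413 for Prdx2, and slopes with Epo were -0.0049 for Gpx1, -0.0008 for Prdx2 and -0.0018 for Prdx3. For the change of the Epo effect, Sod1 had -0.0363 with the mean of all probe sets and -0.0068 without suffixed probe sets, and Prdx2 had 0.0446 with the mean and 0.1007 with the dimmer probe set. Without Epo, Cat had 0.0172 (the other probe set), Prdx2 -0.0102 (the dimmer probe set), Txn1 0.0036 (mean of all probe sets) and Prdx3 -0.0002 (1 to 7 h only). With Epo over 1 to 7 h only, Gpx1 had -0.0065 and Prdx3 -0.0113. With each time left out, Prdx3 ranged from -0.0257 to 0.0047 for the change of the Epo effect, -0.0002 to 0.0168 without Epo and -0.0113 to 0.0134 with Epo, Gpx1 from -0.0065 to 0.0035 with Epo, and Gpx4 from -0.0242 to 0.0141 with Epo. No paired analysis by replicate number was possible because the labels carry no replicate numbers, and the matched hour was the block.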
